A study of Mus musculus with 17 samples.

Results

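A set of 10 transcripts linked to mast cells was followed through the response of the mouse lung to a high focal radiation dose: the proteases Mcpt4, Cma1, Tpsb2, Tpsab1, Cpa3 and Mcpt8, the IgE receptor subunits Fcer1a and Ms4a2, the histamine-forming enzyme Hdc and the growth factor receptor Kit. Mcpt8, Hdc and Kit are also expressed by other cells, as described below. They were taken by symbol, and all 10 were found among the 45777 genes of the count table. The libraries came from male wild-type C57BL/6 mice, 6 weeks old when obtained, and all groups shared this strain, sex and source. The left lung had received a single focal dose of 65 Gy or 75 Gy, or no irradiation, and RNA was taken after 2 weeks, the inflammation stage, or 6 weeks, the fibrosis stage. RNA of irradiated mice was prepared from the lesion. The control, 65 Gy and 75 Gy groups had 3 libraries each at 2 weeks, and at 6 weeks they had 3, 2 and 3. The libraries held between 46764569 and 66797879 counts on genes. Levels are given as CPM (counts scaled to the library total by TMM factors), and 3 counts in a library stood for 0.0443 to 0.0642 CPM. Nothing states that libraries of a group came from separate mice, so errors measure the spread between libraries.

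Mast cells arise from bone marrow progenitors and complete their maturation in tissues under stem cell factor, the ligand of KIT. They carry IgE on the high-affinity receptor and store histamine, heparin and proteases in granules that are released upon activation. In mice, mast cells of connective tissue are classically marked by the chymases encoded by Mcpt4 and Cma1, the tryptase encoded by Tpsb2 and carboxypeptidase A3, whereas mast cells induced at mucosal surfaces during inflammation express Mcpt1 and Mcpt2. Granule proteases cleave matrix proteins, angiotensin and endothelin, and mast cells are known to accumulate in fibrotic lung.

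The chymase genes sit together on chromosome 14. In GRCm38.p6, Cma1 spans 55941451 to 55944675, Mcpt4 56059744 to 56062310 and Mcpt8 56082163 to 56085499, while Mcpt1 starts at 56017964 and Mcpt2 at 56021584 between them. Both tryptase genes lie on chromosome 17, Tpsab1 from 25343245 and Tpsb2 from 25366308. Of the remaining members, Fcer1a lies on chromosome 1, Hdc on chromosome 2, Cpa3 on chromosome 3, Kit on chromosome 5 and Ms4a2 on chromosome 19. Proteases of such a cluster resemble each other, and reads could in principle be split between copies. No stretch of 100 or of 50 bases was identical between the transcripts of Tpsb2 and Tpsab1, or between any pair among Mcpt1, Mcpt2, Mcpt4, Cma1 and Mcpt8.

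Start-proximal sequences are shown for 3 proteases that moved together at 6 weeks and for Mcpt1, a mucosal protease of the same gene cluster. Each line gives the 150 bases before the RefSeq start in GRCm38.p6, in the direction of transcription, and capitals mark a GATA motif, searched as AGATAA or TGATAA on both strands. Mcpt4 was read from chr14:56062311-56062460 (minus strand), Mcpt1 from chr14:56017814-56017963 (plus strand), Cpa3 from chr3:20242182-20242331 (minus strand) and Cma1 from chr14:55944676-55944825 (minus strand).
Mcpt4: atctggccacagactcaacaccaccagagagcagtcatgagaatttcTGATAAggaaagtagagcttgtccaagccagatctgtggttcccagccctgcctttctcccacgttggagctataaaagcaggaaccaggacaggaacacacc
Mcpt1: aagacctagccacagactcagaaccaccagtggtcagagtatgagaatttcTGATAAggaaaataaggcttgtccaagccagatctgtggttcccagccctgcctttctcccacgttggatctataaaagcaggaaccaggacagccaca
Cpa3: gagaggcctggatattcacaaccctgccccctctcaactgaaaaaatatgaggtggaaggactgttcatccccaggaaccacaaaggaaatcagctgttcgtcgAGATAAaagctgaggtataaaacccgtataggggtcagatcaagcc
Cma1: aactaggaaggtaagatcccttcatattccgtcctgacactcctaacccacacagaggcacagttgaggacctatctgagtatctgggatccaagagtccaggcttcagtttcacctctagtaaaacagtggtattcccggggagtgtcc

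The Mcpt4 and Mcpt1 windows were alike in 131 of 154 aligned columns, or 85.1%, and the motif began 103 and 99 bases before their starts. Mcpt4 and its neighbour Cma1 were alike in only 85 of 170 columns, a share close to the 49.4% between Mcpt4 and the unlinked Cpa3. RefSeq windows were found for 8 members (all except Tpsb2 and Tpsab1), and a GATA motif stood within 250 bases before the start in 4 of them, Mcpt4, Cpa3, Fcer1a and Ms4a2. In Cpa3 it began 46 bases before the start, and Ms4a2 had 3 matches. The Ms4a2 window, on the minus strand, begins at 11623720, and the gene span ends at 11623790. Its matches 37 and 11 bases before the start thus lie inside the gene span. The 150-base windows of Hdc and Mcpt8 also lie inside their gene spans. The first transcribed bases at the starts used for Fcer1a and Mcpt1 were not found in a reference transcript. The same search found the motif in 16.6% of 32851 mouse promoter windows. A match of these letters is a description of the sequence and not evidence of a bound factor.

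At the fibrosis stage after 75 Gy, granule protease transcripts stood far above the controls, whereas at the inflammation stage the same genes lay near control levels or, for Mcpt4, below them. The group with the highest mean was 75 Gy at 6 weeks for 8 of the 10 members, the exceptions being Mcpt8 and Kit. Kit was lower in every irradiated group. The genes were chosen by symbol after the levels of mast cell transcripts in these groups had been seen, so their values are given as a description without a test. In bulk tissue, a change in the number of mast cells and a change in RNA per cell cannot be told apart. Among the 75 Gy libraries of 2 weeks, library 3134 stood apart and held the highest value of 7 of the 10 members, so values of that group are also given without it.

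**Figure D1:**
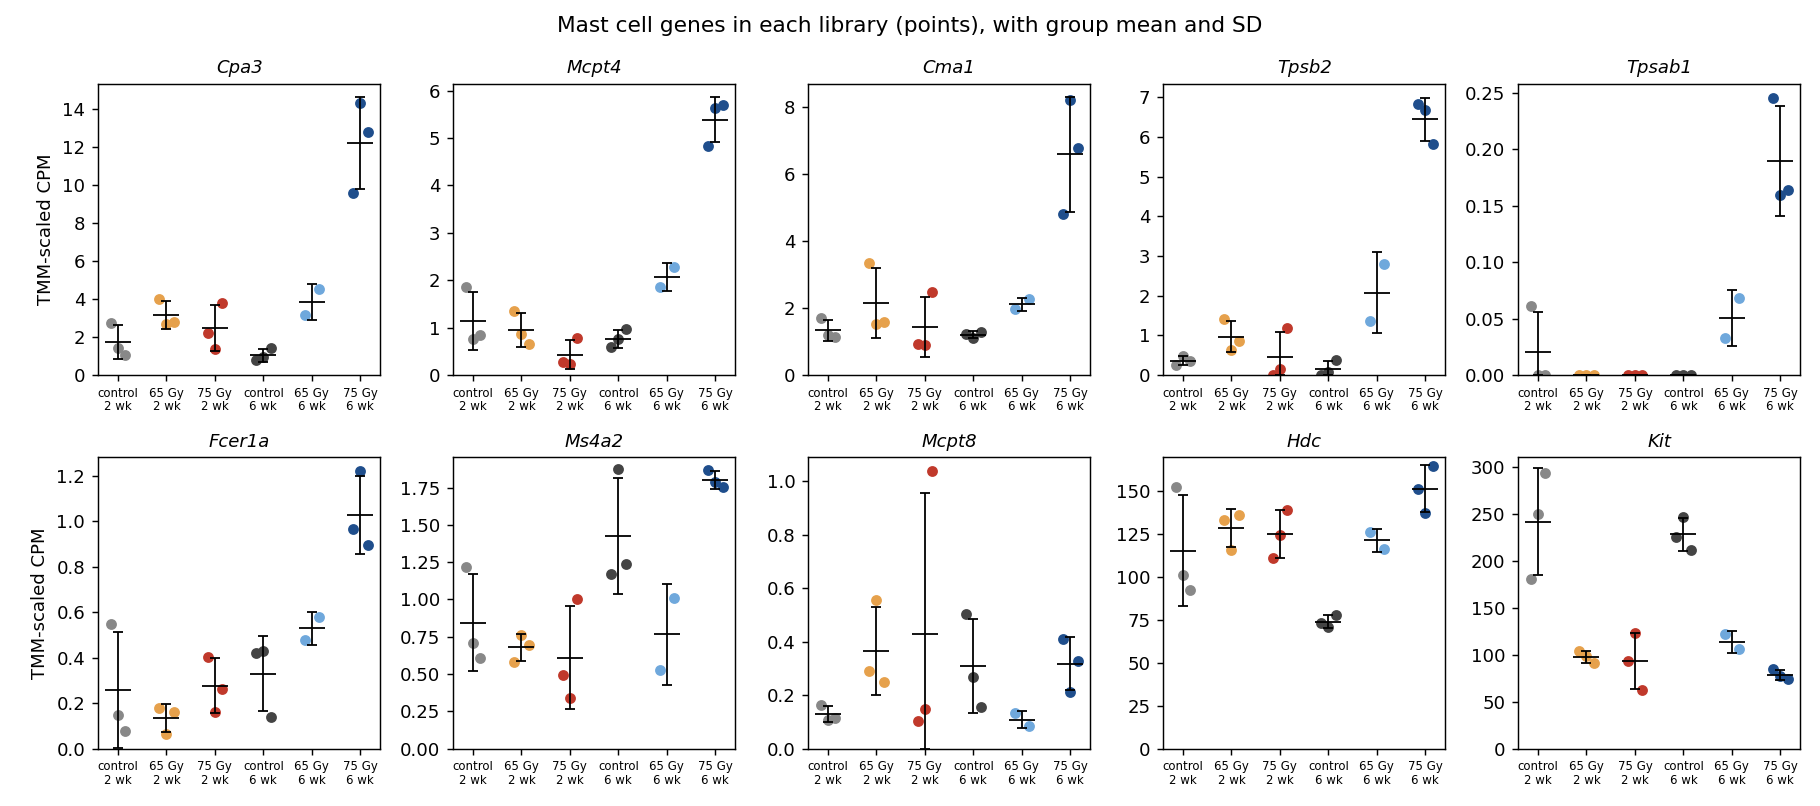
Level of each mast cell gene in every library, in TMM-scaled CPM, by group (points are libraries, horizontal lines are group means and bars are SDs, with the lower bar ending at 0). The panels of Cpa3, Mcpt4, Cma1 and both tryptases are highest for 75 Gy at 6 weeks, with Cpa3 at 9.58 to 14.3 CPM against 0.762 to 1.40 CPM in controls, while Kit is lower in all irradiated groups.

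Carboxypeptidase A3, an exopeptidase stored with heparin in mast cell granules, gave the protease transcript with the highest mean CPM per kilobase in each irradiated group, whereas Cma1 was higher on that scale in both control groups. In the 6-week controls, Cpa3 stood at 0.762, 0.927 and 1.40 CPM. After 75 Gy it reached 9.58, 14.3 and 12.8 CPM at 6 weeks, a log2 fold change of 3.57 (SE 0.41), and no library of either group overlapped. The 2 libraries of 65 Gy lay between these groups at 3.17 and 4.51 CPM, 1.90 (SE 0.42) above the controls on the log2 scale. At 2 weeks the 75 Gy libraries, at 2.22, 1.37 and 3.76 CPM, overlapped with the controls at 2.72, 1.41 and 1.05 CPM.

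Mcpt4 encodes the chymase regarded as the closest mouse counterpart of the human enzyme. Its level in the 6-week controls was 0.584, 0.749 and 0.960 CPM, and it was 1.86 and 2.27 CPM after 65 Gy and 4.84, 5.63 and 5.70 CPM after 75 Gy. The 3 groups did not overlap, and the log2 fold change was 1.43 (SE 0.45) for 65 Gy and 2.82 (SE 0.43) for 75 Gy. At 2 weeks the direction was the opposite after 75 Gy, with 0.280, 0.222 and 0.774 CPM against 1.85, 0.749 and 0.839 CPM in controls, or -1.44 (SE 0.44) on the log2 scale. This lower value depended on single libraries, since the log2 fold change was -2.19 without library 3134 and -0.91 without control library 3126, and highest irradiated and lowest control libraries overlapped. The change at 6 weeks exceeded that at 2 weeks by 4.25 (SE 0.61) on the log2 scale.

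Cma1, the neighbouring chymase gene, followed Mcpt4 at 6 weeks. It was measured at 1.23, 1.09 and 1.27 CPM in controls, at 1.98 and 2.25 CPM after 65 Gy and at 4.79, 8.21 and 6.77 CPM after 75 Gy. The log2 fold change was 2.46 (SE 0.39) for 75 Gy and 0.82 (SE 0.42) for 65 Gy. Unlike Mcpt4, it was not lower at 2 weeks, where 75 Gy libraries lay at 0.928, 0.902 and 2.48 CPM and controls at 1.68, 1.18 and 1.13 CPM. The 2.48 CPM belonged to library 3134, and the log2 fold change of 0.11 (SE 0.39) became -0.54 without it.

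Tryptases are trypsin-like serine proteases that act as heparin-bound tetramers. Tpsb2 ranged from 0 in 2 libraries to 6.84 CPM. The 6-week controls held 0, 0.0713 and 0.384 CPM, 65 Gy libraries 1.35 and 2.80 CPM, and 75 Gy libraries 6.84, 6.69 and 5.82 CPM. The log2 fold change after 75 Gy was 5.41 (SE 1.02), and it was 7.47 without control library 3137, whose 0.384 CPM made up most of the control signal. At 2 weeks, 65 Gy libraries at 0.634 to 1.40 CPM lay above the controls at 0.244 to 0.471 CPM without overlap. The 75 Gy libraries of that time held 0, 0.148 and 1.18 CPM, and the log2 fold change of 0.31 (SE 0.97) became -2.13 without library 3134.

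Tpsab1 encodes the second tryptase, mast cell protease 7, which C57BL/6 mice are known to lack in functional form. It had 42 counts in all and was too low to be fitted. At 6 weeks the 75 Gy libraries had 15, 9 and 9 counts, those of 65 Gy 2 and 4, and the controls none. Against the level that 3 counts per control library would give, Tpsab1 was at least 3.69-fold higher after 75 Gy at 6 weeks. The only other counts were 3 in a single control library of 2 weeks.

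**Figure D2:**
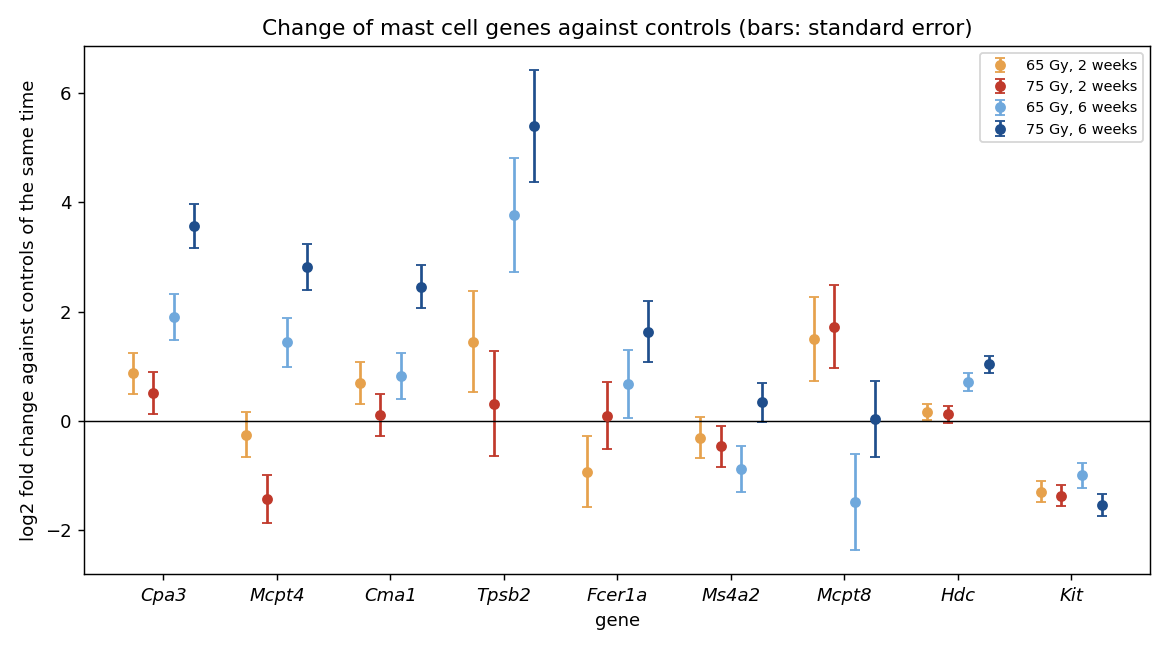
Log2 fold change of 9 mast cell genes against the controls of the same time (points), with the standard error (bars), for both doses at 2 and 6 weeks. Cpa3, Mcpt4, Cma1 and Tpsb2 lie highest after 75 Gy at 6 weeks, and Kit lies between -1.004 and -1.54 in all 4 comparisons.

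The α and β subunits of the high-affinity IgE receptor did not share the size of the protease change. Fcer1a, the subunit that binds IgE, was measured at 0.422, 0.428 and 0.140 CPM in the 6-week controls, at 0.478 and 0.580 CPM after 65 Gy and at 0.968, 1.22 and 0.895 CPM after 75 Gy. No group overlapped another, and it differed from controls on the log2 scale by 0.68 (SE 0.62) for 65 Gy and 1.63 (SE 0.56) for 75 Gy. At 2 weeks, control library 3126 with 0.548 CPM lay above all irradiated libraries, and the change after 75 Gy of 0.09 (SE 0.61) became 1.29 without it.

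Ms4a2, the signal-amplifying β subunit, was measured at 1.87, 1.79 and 1.75 CPM after 75 Gy at 6 weeks. The controls overlapped with these at 1.17, 1.87 and 1.24 CPM. The difference was 0.34 (SE 0.36) on the log2 scale. After 65 Gy it was below the controls at 0.528 and 1.01 CPM, or -0.89 (SE 0.42). The range of Ms4a2 after 75 Gy thus lay inside that of the controls, while Cpa3 in the same libraries was 11.9-fold higher than in controls.

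Mcpt8 encodes a granzyme-like protease of basophils and is commonly used to mark them. It lay at 0.410, 0.212 and 0.329 CPM after 75 Gy at 6 weeks against 0.503, 0.267 and 0.157 CPM in controls, a log2 fold change of 0.03 (SE 0.70). At 2 weeks the 65 Gy libraries (0.291, 0.555 and 0.249 CPM) were above all controls, which held 0.162, 0.107 and 0.114 CPM. In the 75 Gy group, 1.04 CPM in library 3134 faced 0.105 and 0.148 CPM in the others, and the log2 fold change of 1.72 (SE 0.76) became -0.01 without that library. Of the other basophil genes measured (Prss34, Cd200r3, Il4 and Itga2), 0 of 4 passed the test in any comparison with controls. Of all genes, 3.47% to 7.28% were called higher and 0.88% to 3.13% lower in these comparisons. Their summed level, most of it from Itga2, was 31.4 to 33.0 CPM after 75 Gy at 6 weeks and 50.5 to 52.9 CPM in controls.

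Histidine decarboxylase makes histamine and is found in mast cells, basophils and other myeloid cells. Hdc was far more abundant than the granule proteases when set per kilobase of transcript. On that scale its mean level after 75 Gy at 6 weeks was 63.2 CPM (SD 5.72, n = 3), against 8.44 CPM (SD 1.67) for Cpa3 and 4.86 CPM (SD 0.43) for Mcpt4. On the CPM scale it was measured at 151, 137 and 165 CPM in that group, at 126 and 116 CPM after 65 Gy and at 72.9, 71.0 and 78.0 CPM in the controls, without overlap. The log2 fold change was 1.03 (SE 0.15) for 75 Gy and 0.71 (SE 0.17) for 65 Gy. The 2-week controls, at 153, 101 and 92.5 CPM, all lay above those of 6 weeks, and at 2 weeks Hdc differed from controls by 0.11 (SE 0.15) after 75 Gy. Control library 3126, at 153 CPM, lay within the range of the 75 Gy libraries of 6 weeks. Neutrophil markers moved the other way, with 5 of 13 called lower and 0 higher after 75 Gy at 6 weeks, beside 3.13% and 7.28% of all genes. Their summed level was 289.5 to 395 CPM against 541 to 922 CPM in controls.

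KIT is the receptor for stem cell factor and is required for mast cell survival, and in the lung it is also expressed by capillary endothelium. Kit was measured at 226, 247 and 212 CPM in the 6-week controls, at 122 and 106 CPM after 65 Gy and at 84.6, 77.0 and 73.9 CPM after 75 Gy. At 2 weeks it was 181, 251 and 294 CPM in controls, 104, 99.3 and 91.3 CPM after 65 Gy and 93.8, 123 and 63.0 CPM after 75 Gy. No irradiated library reached the lowest control of its time. The log2 fold changes were -1.30 and -1.37 at 2 weeks for 65 Gy and 75 Gy and -1.004 and -1.54 at 6 weeks, each with an SE of 0.20 to 0.22.

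Kit was the only member that was lower in all 4 irradiated groups, whereas Mcpt4 was below the controls at 2 weeks and above them at 6 weeks after 75 Gy. Endothelial transcripts were lower together with it. Of 10 capillary and endothelial genes (Gpihbp1, Plvap, Cd93, Ptprb, Aplnr, Tie1, Kdr, Pecam1, Cdh5 and Calcrl), 7 were called lower after 75 Gy at 6 weeks (3.13% of all genes) and 4 at 2 weeks (2.07%). After 65 Gy, 3 were called lower at 2 weeks (0.88% of all genes) and 1 at 6 weeks (0.943%), and none was called higher in any of these comparisons. Their summed level was 6535 to 6703 CPM in the 6-week controls, 3473 to 3612 CPM after 65 Gy and 2545 to 3011 CPM after 75 Gy. For each 1000 CPM of these genes there were 34.6 CPM of Kit (SD 2.94, n = 3) in the 6-week controls, 32.2 CPM (SD 4.11, n = 2) after 65 Gy and 29.1 CPM (SD 1.01, n = 3) after 75 Gy. At 2 weeks the ratio was 36.2 (SD 5.75) in controls, 24.9 (SD 2.70) after 65 Gy and 25.9 (SD 4.95) after 75 Gy. The part of endothelium in the Kit values was not tested.

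**Figure D3:**
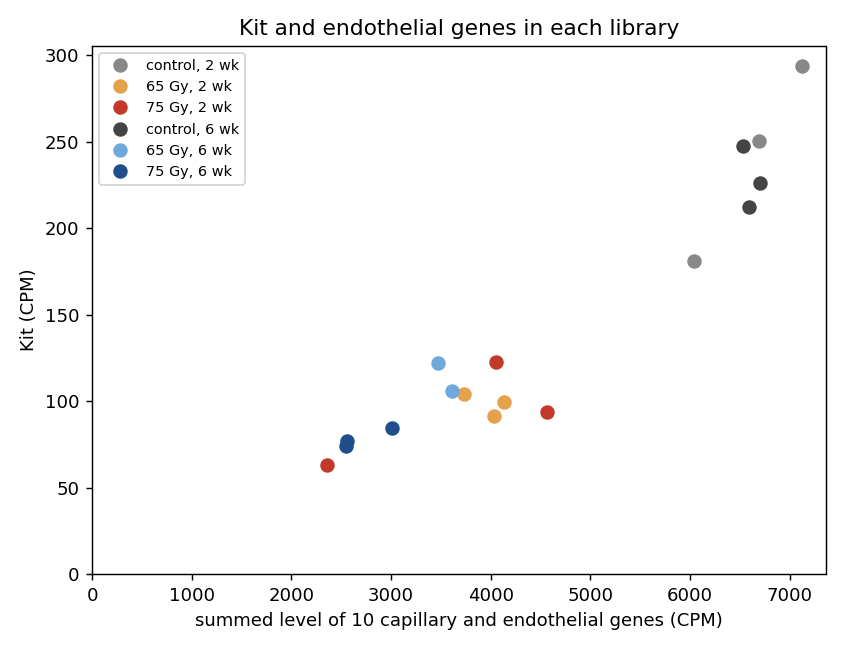
Kit against the summed level of 10 capillary and endothelial genes in each library, both in TMM-scaled CPM. The control libraries of both times form the upper right group, with Kit at 181 to 294 CPM, and the irradiated libraries lie at 63.0 to 123 CPM of Kit with lower endothelial sums.

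For the 9 members that could be fitted, the counts past 2 limits are given beside those of all genes. The limits were an adjusted p up to 0.05 in edgeR's quasi-likelihood test and a log2 fold change of 1 or more in size. Because these contrasts were known when the members were chosen, the counts describe the members and are no test of them. After 75 Gy at 6 weeks, 6 members lay past both limits upwards (Cpa3, Mcpt4, Cma1, Tpsb2, Fcer1a and Hdc), with 7.28% of all 22052 tested genes, and Kit downwards, with 3.13% of them. At 2 weeks after 75 Gy no member lay past them upwards (5.67% of all genes), and Mcpt4 and Kit did downwards (2.07%). After 65 Gy, Kit was lower past the limits at 2 weeks (0.88% of all genes) and none was higher (3.47%), and at 6 weeks Cpa3, Mcpt4 and Tpsb2 were higher (4.34%) and Kit lower (0.943%). The 65 Gy counts at 6 weeks rested on 2 libraries, and 0 of the 9 members passed without library 3140 and 1 without library 3138. The median log2 fold change of the 9 members was 1.63 after 75 Gy at 6 weeks and 0.11 at 2 weeks.

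Counting all 10 members, 7 were higher without overlap after 75 Gy at 6 weeks (Tpsab1 added to the 6 above) and 1 was lower. Of all tested genes, 29.4% were higher and 27.7% lower without overlap in this comparison. Between the irradiated groups, 7 of 10 members were higher without overlap at 6 weeks than at 2 weeks after 75 Gy (14.2% of all genes), that is all except Mcpt8, Hdc and Kit. After 65 Gy, 4 were higher at 6 weeks, Mcpt4, Tpsab1, Fcer1a and Kit (19.5% of all genes), and Mcpt8 was lower (19.1%). The untreated lung showed little of this, as between control groups only Hdc was without overlap, and it was lower at 6 weeks (11.2% of all genes).

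The doses of 65 Gy and 75 Gy share their controls, so the members are also set side by side directly. At 6 weeks, 9 of 10 members were higher after 75 Gy than after 65 Gy without overlap, and Kit was lower, beside 15.6% of all genes higher and 15.3% lower. In the same comparison, 8 of 8 cardiac and 5 of 8 adipocyte markers were higher without overlap, the cardiac sum being 536 to 743 CPM after 75 Gy and 332 to 373 CPM after 65 Gy, and their part in the difference between doses was not tested. The log2 difference was 1.67 (SE 0.42) for Cpa3, 1.64 (SE 0.43) for Cma1, 1.38 (SE 0.46) for Mcpt4 and 1.64 (SE 0.93) for Tpsb2. At neither time did a member pass the limits between doses, and 0% of all genes did by edgeR, with 1570 and 1431 genes at an unadjusted p under 0.05 and 7 and 14 genes called by DESeq2 at 2 and 6 weeks. At 2 weeks all 10 members overlapped between the doses (10.9% of all genes did not).

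Mucosal mast cell proteases were measured beside the connective tissue proteases. Mcpt2, a granule protease of mucosal mast cells, had 0 counts in all 6 control libraries. It appeared at 2 weeks with 66, 23 and 76 counts after 65 Gy and 18, 20 and 199 counts after 75 Gy. At 6 weeks it had 7 and 20 counts after 65 Gy and 34, 42 and 53 counts after 75 Gy. Against a control level of 3 counts per library, Mcpt2 was at least 15.3-fold and 22.5-fold higher at 2 weeks after 65 Gy and 75 Gy (5.02-fold for 75 Gy without library 3134, where the mean of 0.305 CPM was below the 0.756 CPM of 75 Gy at 6 weeks). The adjusted p was 0.0173 and 0.00543 by edgeR's quasi-likelihood test, but 0.0505 for 65 Gy without control library 3127 and 0.0738 for 75 Gy when only these groups were fitted. At 6 weeks it was at least 14.7-fold higher after 75 Gy (adjusted p = 0.00616 by edgeR) and 4.43-fold after 65 Gy, where it did not pass (adjusted p = 0.0785 by edgeR). With controls at 0 at both times, the fitted difference between the changes of 2 and 6 weeks had no usable standard error and is not given. Mcpt2 passed the count filter through irradiated libraries only, so its adjusted p-values describe the gene and are no test.

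Mcpt1 encodes a chymase of intraepithelial mast cells, and it was low and uneven. It had 22, 14 and 13 counts after 65 Gy at 2 weeks and 0, 5 and 67 counts after 75 Gy, the 67 in library 3134, whereas 2 control libraries had 4 counts each and the others 0. It passed in 0 of 4 comparisons with controls, with adjusted p from 0.0826 to 0.538 by edgeR. At 6 weeks it had 4, 10 and 8 counts after 75 Gy and 0 in both libraries of 65 Gy, so after 75 Gy only library 3134 lay above all libraries of 6 weeks.

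The balance between the mucosal and the connective tissue forms was expressed as the share of Mcpt1 and Mcpt2 among the counts of Mcpt1, Mcpt2, Mcpt4 and Cma1, whose transcripts are close in length at 1014 to 1108 bases. In the controls the share was 1.25% ± 2.16 (SD, n = 3) at 2 weeks and 1.15% ± 1.99 (SD, n = 3) at 6 weeks. At 2 weeks it was 28.2% ± 11.6 (SD, n = 3) after 65 Gy. In the 75 Gy libraries of that time it was 20.7% (95% Wilson interval 13.5 to 30.4), 24.8% (17.4 to 34.0) and 59.0% (54.4 to 63.4). At 6 weeks the share was 4.97% ± 2.90 (SD, n = 2) after 65 Gy and 6.84% ± 1.18 (SD, n = 3) after 75 Gy. No irradiated library of 2 weeks overlapped with any library of 6 weeks, and the intervals cover counting error only. The lower share at 6 weeks after 75 Gy went with a larger total. Mcpt1 and Mcpt2 together had 18, 25 and 266 counts at 2 weeks and 38, 52 and 61 at 6 weeks, so only library 3134 lay above the later libraries, while all 4 genes together had 87, 101 and 451 counts at 2 weeks and 625, 834 and 744 at 6 weeks.

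**Figure D4:**
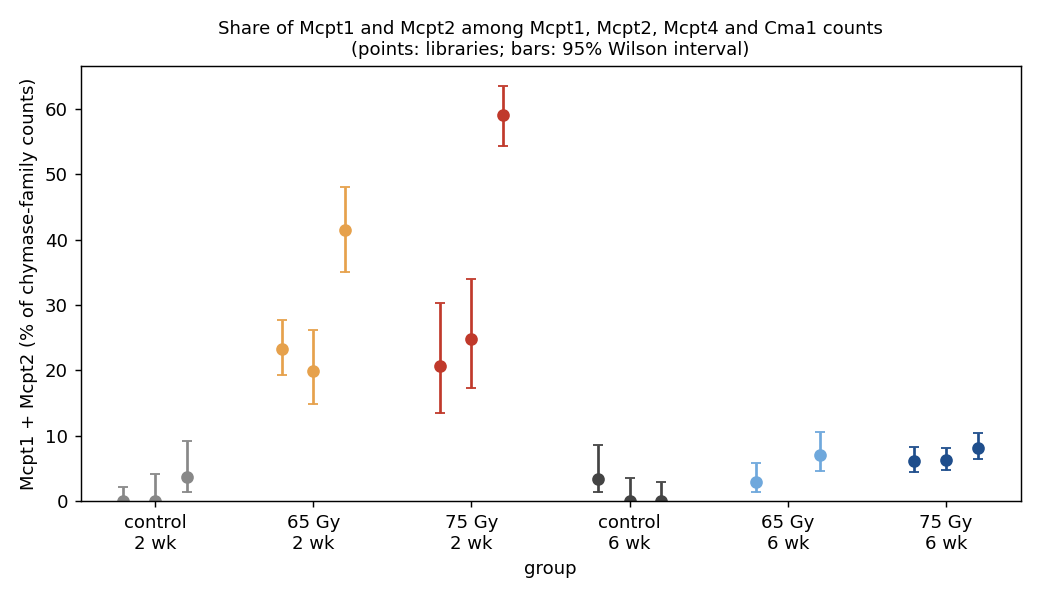
Share of Mcpt1 and Mcpt2 in percent of the counts of Mcpt1, Mcpt2, Mcpt4 and Cma1 in each library (points, with 95% Wilson intervals as bars). Irradiated libraries of 2 weeks lie at 19.9% to 59.0%, and those of 6 weeks at 2.92% to 8.20%.

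Among other genes linked to mast cells, not all of them restricted to these cells, 12 of 16 could be tested. After 75 Gy at 6 weeks, 7 were called higher and none lower, beside 7.28% and 3.13% of all genes. The median log2 fold change of the 12 was 2.55, beside 0.04 over all genes. The count filter dropped genes near 0 throughout and could keep a low gene through a group where it was high. These counts and the median therefore describe the list and are no test of it. The same holds for the adjusted p-values of Mcpt2, Tpsg1, Mrgprb1 and Mrgprb2. These genes had fewer than 10 counts in every control library and passed the filter through irradiated libraries. The called genes were Mcpt2, Tpsg1, Mrgprb1, Mrgprb2, Adora3, Hpgds and the granule membrane gene Cd63. Cd63 had a mean of 93.6 CPM in the 6-week controls, where Mcpt4 had 0.764 CPM. Both Cd63 and Hpgds were also called higher after 75 Gy at 2 weeks, when the granule proteases were not. Mrgprb2, the receptor through which peptides and cationic drugs activate connective tissue mast cells independently of IgE, had 46, 68 and 40 counts after 75 Gy at 6 weeks, 8 and 24 after 65 Gy and 0, 0 and 4 in controls. Its log2 fold change was 5.16 (SE 0.92) for 75 Gy (adjusted p = 0.00101 by edgeR) and 3.44 (SE 1.01) for 65 Gy (adjusted p = 0.0384 by edgeR), where leaving out library 3140 gave an adjusted p of 0.304 by edgeR, 3135 or 3136 of the controls 0.110, 3138 0.0628 and 3142 or 3143 of the 75 Gy group 0.0530 and 0.0502. At 2 weeks after 75 Gy it was listed at 0 in all 3 libraries, while controls had 7, 1 and 4 counts. Both groups were thus near the level of 3 counts, and no fold is given.

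Mrgprb1, a related receptor, had 52, 47 and 31 counts after 75 Gy at 6 weeks against 0, 0 and 9 in controls (log2 fold change 3.80, SE 0.98, adjusted p = 0.00749 by edgeR). Tpsg1, the transmembrane tryptase, had 4, 11 and 15 counts against none in controls and was at least 3.46-fold higher (adjusted p = 0.0283 by edgeR, 0.0614 to 0.0653 with a control library left out). Neither passed at 2 weeks, and the adjusted p-values of both are no test, since the filter kept these genes through irradiated libraries. Adora3, the adenosine A3 receptor that enhances mast cell degranulation, rose at both times and doses (for 65 Gy at 2 weeks not without library 3127 or 3130), by 2.82 (SE 0.24) on the log2 scale after 75 Gy at 6 weeks. Its mean was 3.05 CPM (SD 0.32) in that group and 0.431 CPM (SD 0.0793) in controls. At 2 weeks the means were higher in both, at 3.68 CPM (SD 1.06) after 75 Gy and 1.39 CPM (SD 0.235) in controls.

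**Figure D5:**
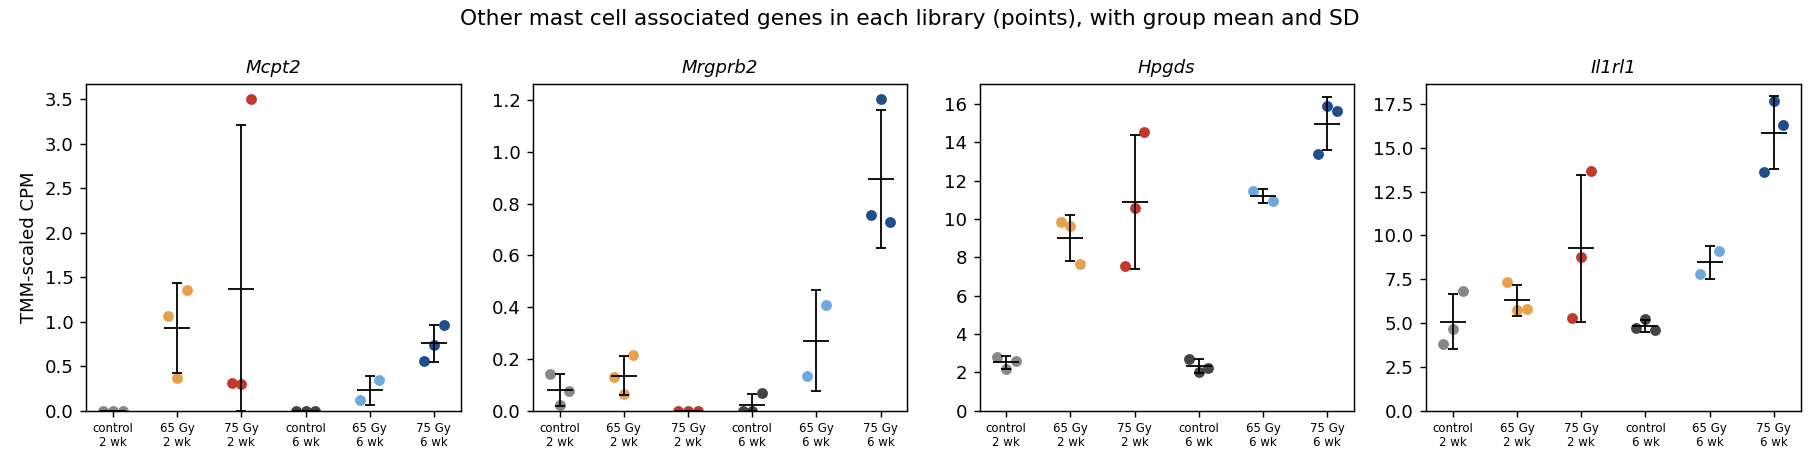
Level of Mcpt2, Mrgprb2, Hpgds and Il1rl1 in every library, in TMM-scaled CPM (points are libraries, horizontal lines group means, bars SDs with the lower bar ending at 0). Mcpt2 is present in irradiated libraries of both times, led by 3.50 CPM in library 3134 of 2 weeks, with 0.558 to 0.968 CPM after 75 Gy at 6 weeks. Mrgprb2 is highest after 75 Gy at 6 weeks at 0.730 to 1.20 CPM.

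Genes of the prostaglandin and leukotriene pathway, not all of them restricted to mast cells, differed in part, and their cell source was not tested. Hematopoietic prostaglandin D synthase, Hpgds, was higher in all 4 comparisons, with means of 9.02 and 10.9 CPM at 2 weeks after 65 Gy and 75 Gy against 2.51 CPM in controls, and of 11.2 and 14.96 CPM at 6 weeks against 2.31 CPM. After 75 Gy at 6 weeks its log2 fold change was 2.69 (SE 0.21, adjusted p = 1.02e-06 by edgeR). Ptgdr, a receptor for prostaglandin D2, had 45, 68 and 61 counts in that group against 0, 0 and 3 in controls (log2 fold change 5.72, SE 0.81). Leukotriene C4 synthase, Ltc4s, rose at 2 weeks by 1.15 (SE 0.14) after 75 Gy and lay at the limit of 1 after 65 Gy, where it was 0.947 without library 3130. The cysteinyl leukotriene receptor Cysltr1 rose at 6 weeks after 75 Gy by 1.46 (SE 0.21). In all, 4 of 12 genes of this pathway were called higher after 75 Gy at 6 weeks and 1 lower, beside 7.28% and 3.13% of all genes. Of the 7 genes for histamine receptors and clearance, only Aoc1, which encodes diamine oxidase, was called. It was higher in all 4 comparisons, in which 3.47% to 7.28% of all genes were called higher.

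Factors that support or prime mast cells also differed. Il33, an alarmin released by damaged lung cells, and Il1rl1, its receptor on mast cells and group 2 innate lymphoid cells, rose after 75 Gy at 6 weeks by 1.37 (SE 0.18) and 1.71 (SE 0.27) on the log2 scale. The level of Il33 in controls was lower at 6 weeks (85.3 CPM, SD 5.25) than at 2 weeks (161 CPM, SD 59.0). Csf2rb, which encodes the β chain shared by the receptors for interleukin-3, interleukin-5 and GM-CSF, and Csf2rb2, which encodes the β chain specific to interleukin-3, were called higher in all 4 comparisons. Il3 and Il9, cytokines that drive mucosal mast cells, had 0 counts in every library, which allows at most 3 counts in each. Kitl, the KIT ligand, was 301 CPM (SD 7.70) in the 6-week controls and 163 CPM (SD 10.2) after 75 Gy, a log2 fold change of -0.88 (SE 0.17) that did not reach the limit of 1.

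Among transcription factors of mast cells, the calls were in the lower direction. GATA2 is required for mast cells and is abundant in endothelium, and Gata2 fell by 1.82 (SE 0.23) on the log2 scale after 75 Gy at 6 weeks (adjusted p = 5.71e-05 by edgeR), in the same libraries in which the endothelial sum was lower. Of 11 such factors tested, Gata2 and Tal1 were called lower (3.13% of all genes) and none higher. The log2 fold change of Tal1 was -1.07 (SE 0.18), and it was -0.94 without library 3143 and -0.99 without 3135. Mitf, a factor required for mast cell development, lay above the controls without overlap at 6 weeks, at 21.7 to 26.0 CPM after 75 Gy and 21.9 to 25.7 CPM after 65 Gy against 14.4 to 15.6 CPM, with a log2 fold change of 0.65 (SE 0.19) after 75 Gy that was under the limit of 1. Below the IgE receptor, 2 of 16 signalling genes were called higher after 75 Gy at 6 weeks (7.28% of all genes) and 4 at 2 weeks (5.67%). They were Fcer1g, the γ chain common to several Fc receptors, and Lat2 at both times, and Lcp2 and Vav1 at 2 weeks. Without library 3134, Lcp2 (0.80) and Vav1 (0.62) were under the limit of 1 on the log2 scale, and with only the groups compared their adjusted p was 0.0514 and 0.0968 by edgeR. All 4 are expressed widely in leukocytes. Of 8 genes for serglycin and heparin synthesis, only Ndst1 was called, and it was lower at 6 weeks after 75 Gy (3.13% of all genes). Its log2 fold change was -1.02 (SE 0.18), and it was -0.89 to -0.99 when library 3136, 3142 or 3143 was left out. Of 8 genes tested for F2rl1 and the angiotensin and endothelin systems, on which mast cell proteases act, Ace and Ednrb were called lower in that group (3.13% of all genes). None was called higher. Ace and Ednrb encode a converting enzyme and a receptor of these systems. At 2 weeks Ednrb was also called lower, by -1.42 after 75 Gy and by -1.15 after 65 Gy on the log2 scale (2.07% and 0.88% of all genes). For 65 Gy the call was lost in 8 fits with a library left out. The endothelial sum was lower in the same groups, and the cell source of these changes was not tested.

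Markers of other tissues moved alongside the protease genes in part. Summed cardiac muscle markers, which can reach lung samples with pulmonary veins, ranged from 174 to 686 CPM in the 6-week controls and from 536 to 743 CPM after 75 Gy, with 2 of 8 called higher (Sln and Tnni3, beside 7.28% of all genes). At 2 weeks they were 74.0 to 277 CPM after 75 Gy against 333 to 425 CPM in controls. Adipocyte markers were 94.6 to 119 CPM after 75 Gy at 6 weeks, within the control range of 36.0 to 146 CPM, and lay at 11.5 to 33.0 CPM after 75 Gy at 2 weeks against 101 to 108.4 CPM in controls. Summed smooth muscle markers were 272 to 363 CPM in that group against 434 to 576 CPM, and at 6 weeks they overlapped. The part of these tissues in the mast cell values was not tested. Markers of group 2 innate lymphoid cells, a list that includes Il1rl1, were called higher for 4 of 8 after 75 Gy at 6 weeks (7.28% of all genes). In this list 1 gene was lower without overlap (27.7% of all genes). The summed level of 90.9 to 114 CPM overlapped with the controls at 96.2 to 109 CPM. Among 6 eosinophil markers tested, Ear6 alone was called. It was higher after 75 Gy at 2 and 6 weeks (5.67% and 7.28% of all genes) and after 65 Gy at 2 weeks (3.47%). The lung label held, as epithelial markers summed to at least 21151 CPM in every library. The sum was 33810 to 39390 CPM after 75 Gy at 6 weeks and 34515 to 39916 CPM in controls. There, 3 of 8 were higher and 3 lower without overlap (29.4% and 27.7% of all genes). At 2 weeks it was 28316 to 32455 CPM after 65 Gy, 21151 to 39702 CPM after 75 Gy and 36556 to 45950 CPM in controls. Library 3134 held the lowest epithelial sum and also the lowest endothelial sum, 2361 CPM.

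To find transcripts with a like pattern, 15793 other genes were ranked by Pearson's r with the mean standardised level of Mcpt4, Cma1, Tpsb2 and Cpa3 over the 17 libraries. The libraries form groups, so that r describes mostly the differences between groups. The genes most alike were Apod, Arhgap18, Hmgb3, Dph1, Col28a1, Sdha, Ighg1, Vit, Cdk5rap3 and Bok, with r from 0.924 down to 0.850. Apod, which encodes a secreted lipocalin, had means of 8.65, 15.97 and 13.1 CPM at 2 weeks for control, 65 Gy and 75 Gy, and 7.88, 27.7 and 52.4 CPM at 6 weeks. The rank order changed with the measure, since Spearman's rho kept 4 of these 10 genes and deviations from the group means kept 0. Among the other members, r with the same mean was 0.69 for Hdc, 0.61 for Fcer1a, 0.53 for Ms4a2, 0.19 for Mcpt8 and -0.63 for Kit.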

How the data were processed

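The authors made stranded mRNA libraries, sequenced both ends and processed the reads with Trimmomatic, HISAT2 (build GRCm38.p6) and StringTie. They deposited whole-number read counts per gene without normalization, and the step from StringTie to counts is not given in the sources used here. The third 65 Gy library of 6 weeks was not analysed here.

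All 17 libraries were fitted together with edgeR 4.0.16 in R 4.3.3 (TMM factors, 1 coefficient per group, quasi-likelihood F test, Benjamini-Hochberg adjustment over 22052 genes). The filter was filterByExpr (minimum count 10, minimum total 15), which 9 of the 10 members passed and Tpsab1 did not. A call needed an adjusted p up to 0.05 and a log2 fold change of 1 or more in size. The SE was taken from the F statistic. Log2 CPM used a prior count of 2. On simulated counts of 22052 genes for 75 Gy against controls at 6 weeks, 181 of 200 changed genes were recovered with 182 called. The changed genes were drawn from those above a limit on total counts and were changed by 2 on the log2 scale. Recovery of genes with fewer counts or of smaller changes was not simulated.

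The members and gene lists were chosen with earlier results of these data known. Named genes are the members, the called genes of 8 lists (at most 4 per list, with the smallest p), the 10 genes most like the proteases and markers of other cells. Mcpt1, Mcpt2, Mrgprb1, Tpsg1, Cd63, Mitf, Kitl, Il3 and Il9 were named after their values were seen. Alternatives were other scaling factors, other count filters, DESeq2 1.42.0, only the groups compared, no fold-change limit and each library left out. Promoter windows are from RefSeq, and transcript lengths and shared stretches from the reference transcripts.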

Additional observations from a re-analysis of the deposited data

Results flagged for a closer look

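Mcpt8 was flagged because its direction after 65 Gy differed between the times. At 2 weeks all 3 irradiated libraries (0.249 to 0.555 CPM) lay above the controls (0.107 to 0.162 CPM), and at 6 weeks both (mean 0.109 CPM) lay below the controls (0.157 to 0.503 CPM). The difference was not tested, and the values correspond to few counts.

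Mrgprb2 was flagged because after 75 Gy it was below the controls at 2 weeks (0 counts in 3 libraries against 7, 1 and 4) and above them at 6 weeks (46, 68 and 40 counts against 0, 0 and 4). The fitted difference between the effects was 10.4 on the log2 scale (adjusted p = 0.0317 by edgeR's quasi-likelihood test). Its size depends on the prior count because the group at 2 weeks is listed at 0, and it is not a bound. Mrgprb2 passed the count filter through irradiated libraries only, so this adjusted p is no test.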

How the results depend on the processing

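No paired analysis was possible because library numbers do not recur between groups. Results are limited by low counts of most mast cell genes and by the 2 libraries of 65 Gy at 6 weeks, and the causes of the shifts were not tested. With other factors, filters, DESeq2 or only the groups compared, 238 of 238 member fold changes stayed within the spread between libraries, as did 600 of 612 with a library left out. Members past the limits kept their direction. Others could change sign, as Mcpt4 after 65 Gy at 2 weeks did, from -0.26 to 0.27 without control library 3126. Of the fold changes of called companion genes (the 8 lists), 469 of 480 kept their call, and 977 of 1052 with a library left out. With only the groups compared, 75 Gy at 2 weeks gave 834 genes and 1 mast cell gene past the limits (1707 and 2 as reported), Mcpt2 there had an adjusted p of 0.0738 by edgeR, 75 Gy against 65 Gy at 6 weeks gave 1, controls of 6 against 2 weeks 32 and the difference of the 65 Gy effects 9. With the adjusted p alone, calls were 4922 genes (39 companions) and 7935 (41) for 75 Gy at 2 and 6 weeks, 2422 (24) and 3234 (26) for 65 Gy, and 359 between controls. With every gene of at least 1 count, or at least 10 counts in every library, 2 mast cell genes passed after 65 Gy at 6 weeks (4 as reported); the former also gave 1 gene between doses at 6 weeks and 5 for the 65 Gy effects. DESeq2 called 7 and 14 genes between doses at 2 and 6 weeks, 221 between controls, and 299 and 79 for the differences of the 75 Gy and 65 Gy effects (56 and 3 by edgeR). With each library left out, genes called ranged from 1097 to 2053 (75 Gy, 2 weeks), 1777 to 2548 (75 Gy, 6 weeks), 677 to 1093 (65 Gy, 2 weeks), 604 to 1275 (65 Gy, 6 weeks), 0 to 1 and 0 to 4 (between doses), 58 to 155 (controls), 29 to 104 (75 Gy effects) and 0 to 26 (65 Gy effects). Mast cell genes past the limits ranged from 1 to 2 for each dose at 2 weeks, 5 to 8 for 75 Gy at 6 weeks (7 as reported) and 0 to 4 for 65 Gy at 6 weeks, and companions for 65 Gy at 2 weeks from 4 (without library 3127) to 13 (11 as reported). The 10 genes most like the proteases shared 4 by Spearman's rho and 0 by deviations from group means.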
